A study of Homo sapiens with 16 samples.

Results

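The cytokine windows described here were the 57 of 151654 H3K27ac windows that lay within 50000 bp of the transcription start site (TSS) of IL1A, IL1B, IL1RN, IL18, IL6, TNF, CXCL8, CXCL1, CXCL2 or CXCL3. Each window is a 1000 bp stretch around an open chromatin region, and it was given to the gene with the nearest TSS in the table. IL1A and IL1B had 6 windows each, IL1RN 11, IL18 3, IL6 5, TNF 1, CXCL8 13, CXCL1 5, CXCL2 3 and CXCL3 4. The distance limit left none of their windows out, as the farthest lay at -49957 bp from CXCL8. Distances are negative upstream of the TSS.

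H3K27ac was profiled by ChIP-seq in THP-1, a line grown from a human acute monocytic leukaemia, in 4 groups of 2 replicate libraries. WT cells carried Cas9 without loss of USP18, and USP18-/- cells had lost USP18 through CRISPR editing. Cells of both genotypes were either left untreated or received IFNα at 1000 U/ml for 6 h. The knockout cells had been grown out from single sorted cells, so that loss of USP18 and a difference between clones cannot be told apart in any comparison of genotypes. The replicates were cultures of 1 cell line, and the p-values measure only the spread between these libraries. ChIP-seq of a culture also cannot tell more acetylation per cell from more cells with the mark.

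H3K27ac marks active promoters and enhancers. IL-1α, IL-1β, IL-18, TNF and IL-6 are inflammatory cytokines that monocytes release after infection or injury, IL1RN encodes the antagonist that occupies the IL-1 receptor without signalling, and CXCL8, CXCL1, CXCL2 and CXCL3 encode chemokines that draw neutrophils through CXCR2. Many of these genes are induced through NF-kB, AP-1 and C/EBP factors, whereas many genes induced by IFNα carry the interferon-stimulated response element (ISRE). USP18 removes ISG15 from proteins and restrains signalling at the type I IFN receptor.

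Some of the sequences at and upstream of these genes are given first, from hg38. The 250 bases before the TSS are shown for IL6, IL1RN, TNF and CXCL8, ending before the first annotated exon, because these promoters represent a rise with IFNα, a gain without IFNα and a gene whose upstream windows fell. The central 250 bases are shown for the distal IL6 window with the largest change and for the CXCL8 window with the most tags. Capitals mark matches, on either strand, to the motifs of NF-kB, the ISRE core, AP-1 (TGANTCA) or C/EBP (TTGCNNAA). The NF-kB letters were GGG, A or G, any base, A or T, any pair of C or T, then CC. The ISRE core was TTTC, any pair of bases, TTTC.
IL6 promoter, chr7:22726892-22727141, plus strand: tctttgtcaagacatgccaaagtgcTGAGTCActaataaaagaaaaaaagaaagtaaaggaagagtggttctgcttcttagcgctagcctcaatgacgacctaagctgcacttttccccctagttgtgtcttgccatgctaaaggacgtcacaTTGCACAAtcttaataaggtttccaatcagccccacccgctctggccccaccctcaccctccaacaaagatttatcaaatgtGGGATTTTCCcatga
IL6 distal window at -3652 bp, chr7:22723366-22723615, plus strand: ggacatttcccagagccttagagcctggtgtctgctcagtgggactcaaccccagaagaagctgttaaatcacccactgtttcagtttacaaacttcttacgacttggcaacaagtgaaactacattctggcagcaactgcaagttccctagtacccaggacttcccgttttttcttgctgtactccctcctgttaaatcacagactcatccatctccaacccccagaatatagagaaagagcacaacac
IL1RN promoter of the -72 bp window, chr2:113127233-113127482, plus strand: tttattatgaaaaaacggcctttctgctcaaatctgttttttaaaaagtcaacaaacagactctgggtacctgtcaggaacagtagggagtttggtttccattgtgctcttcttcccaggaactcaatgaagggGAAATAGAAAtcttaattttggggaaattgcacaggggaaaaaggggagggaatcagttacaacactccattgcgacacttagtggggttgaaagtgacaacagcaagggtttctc
TNF promoter, chr6:31575315-31575564, plus strand: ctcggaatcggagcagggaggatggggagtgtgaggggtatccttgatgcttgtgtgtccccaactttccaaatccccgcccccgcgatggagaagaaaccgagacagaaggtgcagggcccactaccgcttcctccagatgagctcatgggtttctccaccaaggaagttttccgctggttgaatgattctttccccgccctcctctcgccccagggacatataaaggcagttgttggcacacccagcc
CXCL8 promoter, chr4:73740269-73740518, plus strand: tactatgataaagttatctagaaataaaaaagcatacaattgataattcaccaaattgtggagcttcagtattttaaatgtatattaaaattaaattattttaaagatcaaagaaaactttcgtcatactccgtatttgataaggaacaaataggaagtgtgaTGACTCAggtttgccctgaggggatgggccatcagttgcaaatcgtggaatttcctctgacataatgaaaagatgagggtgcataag
CXCL8 distal window at -8341 bp, chr4:73732041-73732290, plus strand: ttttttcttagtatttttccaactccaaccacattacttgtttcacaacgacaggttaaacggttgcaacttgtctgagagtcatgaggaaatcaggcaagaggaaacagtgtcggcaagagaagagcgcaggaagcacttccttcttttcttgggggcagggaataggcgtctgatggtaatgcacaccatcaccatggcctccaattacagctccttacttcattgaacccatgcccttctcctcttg
In the printed IL6 promoter an AP-1, a C/EBP and an NF-kB match followed each other towards the TSS. The IL1RN promoter held 1 ISRE core match, and the CXCL8 promoter held 1 AP-1 match. The TNF promoter and the printed stretches of the IL6 -3652 bp and CXCL8 -8341 bp windows held no match to these letters. A site that differs from the letters by a single base is not marked or counted, so the lack of a match does not show the lack of a site.

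Over whole windows, an NF-kB match was present in 9 of 57 cytokine windows (15.8%) and in 13.1% of all 151654 windows. An ISRE core match was present in 8 of 57 (14.0%) against 17.2% of all windows. AP-1 matches were found in 31 of 57 (54.4%) against 31.1%, and C/EBP matches in 30 of 57 (52.6%) against 43.8%. The search allows matches of different motifs to overlap. Among the 10 windows nearest the starts, NF-kB matches lay in those of IL6, CXCL1, CXCL2 and CXCL3. The NF-kB motif lay in 22.9% of all windows within 1000 bp of a TSS.

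The libraries held 9046141 to 12935454 tags in the windows of the table. The USP18 window at 111 bp held 7.52 to 7.74 CPM (counts per 1000000 tags) in untreated WT, 14.8 to 17.8 CPM in IFNα-treated WT, 8.09 to 8.35 CPM in untreated USP18-/- and 41.1 to 48.4 CPM in IFNα-treated USP18-/- cells; acetylation there does not test the edited sequence. All 9 monocytic markers with a window were above 0, and their summed level was 234 to 235 CPM in untreated WT, 231 to 241 CPM in IFNα-treated WT, 227 to 239 CPM in untreated USP18-/- and 202 to 212 CPM in IFNα-treated USP18-/- cells. For 8 markers of T, B, erythroid and epithelial cells the sum was 20.0 to 22.3, 21.6 to 22.4, 20.7 to 20.8 and 22.8 to 25.8 CPM in the same order, and no marker was at 0 in both libraries of a group. Under this sum, single markers moved in opposite directions. With IFNα, mean levels in USP18-/- against WT cells were lower by the test used below at MPO (4.26 against 52.6 CPM), ELANE (32.1 against 64.5 CPM) and LYZ (5.07 against 11.03 CPM) and higher at CD14 (8.63 against 3.58 CPM). The other 5 were not called: SPI1 held 127.7 against 71.4 CPM, and CD33, CSF1R, ITGAM and FCGR1A 2.29 to 10.4 against 2.25 to 10.9 CPM. Without IFNα, MPO alone of the 9 was called, lower in USP18-/- cells at 17.2 against 52.1 CPM. There 3 others had an adjusted p under 0.05 in that test and missed the fold threshold. CD14 (7.85 against 4.01 CPM) and SPI1 (97.7 against 65.9 CPM) were higher, and FCGR1A was lower (6.56 against 9.22 CPM). The part of these markers in the results below was not tested.

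Of the 57 windows, 56 had enough tags to be tested (10 counts or more in 2 or more libraries); the CXCL1 window at 34031 bp did not, with 0.509 and 0.716 CPM in untreated WT and 0.612 and 1.11 CPM in IFNα-treated USP18-/- cells. A window was called when its log2 fold change exceeded 1 in size with an adjusted p under 0.05, from edgeR's quasi-likelihood test and the Benjamini-Hochberg method over all 123276 windows tested. In these terms 29 windows of 8 genes were called in at least 1 of 5 comparisons and 27 in none. The share of all windows called in at least 1 comparison was not computed, so these counts only describe the cytokine windows. CXCL2 and CXCL3 had no called window. The comparisons share libraries, so their counts are not independent of each other.

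IFNα in WT cells raised and lowered 0 of 56 cytokine windows, where 0.342% of all windows rose and 0.0389% fell. At an unadjusted p under 0.05, 7 of the 56 differed, all of them higher, and DESeq2 also called 0. IFNα in USP18-/- cells raised 11 windows (19.6%) against 7.12% of all windows and lowered 2 (3.57%) against 4.3%. Those 11 were 6 of IL1RN and 5 of IL6. The direct test of the difference between the IFNα effects called 10 windows higher in USP18-/- cells (17.9%, background 4.66%) and 4 lower (7.14%, background 2.51%). By DESeq2 the latter counts were 10 and 2.

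Loss of USP18 without IFNα raised 7 windows (12.5%), against 5.67% of all windows, and lowered 9 (16.1%), against 10.8%. DESeq2 called 7 and 6. With IFNα, 14 windows were higher in USP18-/- than in WT cells (25%, background 11.3%) and 11 were lower (19.6%, background 13.4%). All windows lower in untreated USP18-/- cells were of CXCL8, and those higher were the 5 of IL6, the 1 of TNF and 1 of IL1A. With 7 windows called higher and 7 called lower under both treatments, none was called in opposite directions. The share of all windows called under both treatments was not computed. The median log2 fold change of the 56 windows was 0.07 for IFNα in WT, 0.18 for IFNα in USP18-/-, -0.08 for loss of USP18 without IFNα and 0.07 with IFNα, beside medians of -0.01, -0.01, -0.02 and 0.00 over all windows tested. The direction of these counts depended in part on scaling. With libraries scaled by their sum of counts, the median of all windows moved to -0.14 for IFNα in USP18-/- and -0.27 for loss of USP18 with IFNα, and the split of higher to lower cytokine windows became 11 to 6 and 11 to 18. Over all 123276 windows tested the split moved the same way. It went from 8783 to 5303 into 7461 to 7882 for IFNα in USP18-/-, and from 13897 to 16528 into 8789 to 24065 for loss of USP18 with IFNα.

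**Figure D1:**
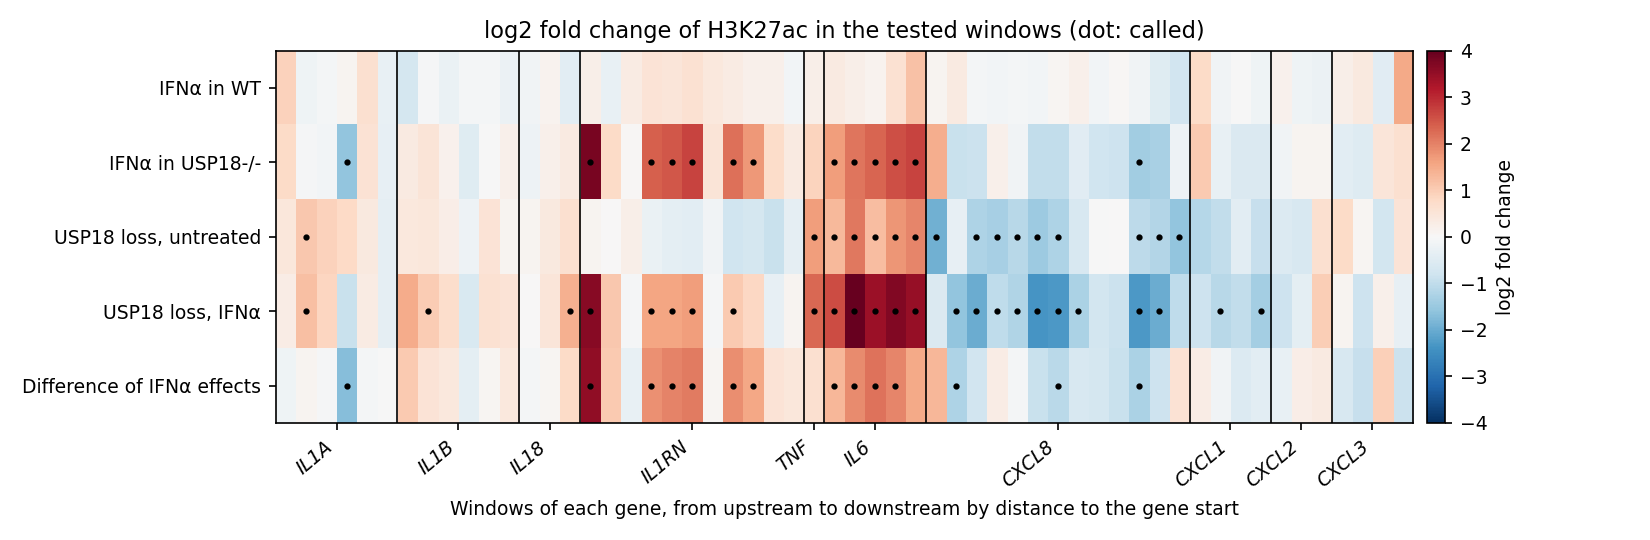
Heat map of the log2 fold change of H3K27ac (colour scale from -4 to 4) in the 56 tested windows, grouped by gene and ordered by distance to the start, in 5 comparisons; a dot marks a called window. Red cells with dots lie mainly in IL1RN and IL6, with others in TNF, IL1A, IL1B and IL18, blue cells with dots lie mainly in CXCL8, with others in IL1A and CXCL1, and the row for IFNα in WT has no dot.

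Of the genes for IL-1 ligands and IL-18, few windows were called. IL1A, which encodes the IL-1 form that also acts inside and on the surface of cells, had a called gain at -8930 bp (chr2:112793828-112794828, intergenic). It held 3.57 and 3.85 CPM in untreated WT, 3.81 and 2.83 CPM in IFNα-treated WT, 8.52 and 7.31 CPM in untreated USP18-/- and 8.40 and 6.94 CPM in IFNα-treated USP18-/- cells. All 4 USP18-/- libraries lay above all 4 WT libraries, and IFNα made no such separation. Loss of USP18 gave a log2 fold change of 1.09 ± 0.23 (SE) without IFNα (edgeR adjusted p = 5.17e-05) and 1.20 ± 0.24 with IFNα (edgeR adjusted p = 1.07e-05). With sum-of-counts scaling these were 0.95 and 0.93 and not called, and the first was 0.97 without USP18-/- untreated replicate 1. The adjacent window at -8280 bp, which shares 351 bases with it, had log2 fold changes of 0.92 ± 0.20 and 0.87 ± 0.21 for the same comparisons, under the fold threshold.

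A second IL1A window, at -2527 bp, was called lower with IFNα in USP18-/- cells, from 1.72 and 3.51 CPM to 1.14 and 0.555 CPM. WT libraries held 1.53 and 1.43 CPM untreated and 1.76 and 1.42 CPM treated, so that untreated USP18-/- replicate 2 stood above all others. This was a log2 fold change of -1.59 ± 0.41 (edgeR adjusted p = 0.00154), and -1.69 ± 0.59 for the difference of IFNα effects (edgeR adjusted p = 0.0445). The first call was lost without USP18-/- untreated replicate 2 (adjusted p = 0.191) or without USP18-/- IFN replicate 2 (adjusted p = 0.0665). The difference of effects was not called when any of 6 single libraries was left out (log2 -1.11 to -1.84, adjusted p = 0.0674 to 0.362), all of them other than replicate 1 of the USP18-/- groups. It was also lost with unrounded values (adjusted p = 0.0539) and with the lower filter of 1 count (adjusted p = 0.0566). The window nearest the IL1A start (873 bp in the table, chr2:112784025-112785025, over the 5' UTR and first exon) was low throughout, with 1.12 and 0.806 CPM in untreated WT, 1.56 and 1.42 CPM in IFNα-treated WT, 1.03 and 1.52 CPM in untreated USP18-/- and 2.19 and 1.57 CPM in IFNα-treated USP18-/- cells. It was called in no comparison.

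IL1B, the gene of the main secreted IL-1, carried little acetylation at its start. The window at -53 bp (chr2:112836332-112837332, promoter) held 5.81 and 4.56 CPM in untreated WT, 4.59 and 5.26 CPM in IFNα-treated WT, 3.18 and 5.79 CPM in untreated USP18-/- and 2.71 and 3.70 CPM in IFNα-treated USP18-/- cells. Each group overlapped at least 1 other, and none of the 5 comparisons was called. IFNα in USP18-/- cells gave a log2 fold change of -0.47 ± 0.27 (edgeR adjusted p = 0.22). An upstream IL1B window at -5026 bp (chr2:112841305-112842305, intergenic) was more acetylated, with 10.5 and 10.3 CPM in untreated WT, 11.4 and 8.70 CPM in IFNα-treated WT, 16.01 and 12.3 CPM in untreated USP18-/- and 22.7 and 17.8 CPM in IFNα-treated USP18-/- cells. All USP18-/- libraries lay above all WT libraries there. With IFNα the log2 fold change for loss of USP18 was 1.01 ± 0.16 (edgeR adjusted p = 1.17e-07), just past the fold threshold. It was under it with sum-of-counts scaling (0.73), with a filter of 30 counts (0.97), and without WT IFN replicate 2 (0.82), USP18-/- IFN replicate 1 (0.79) or USP18-/- untreated replicate 1 (0.98).

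IL18, whose product drives IFN-γ release from lymphocytes, held 4.18 and 3.67 CPM in untreated WT and 3.67 and 3.61 CPM in IFNα-treated USP18-/- cells at its start (-7 bp, chr11:112163624-112164624, promoter). The other libraries there held 4.30 and 2.83 CPM (IFNα-treated WT) and 4.39 and 3.99 CPM (untreated USP18-/-), and no comparison was called. A window in the intergenic stretch at 34291 bp (chr11:112129326-112130326) was higher in USP18-/- cells under IFNα, with 0.781 and 0.91 CPM in WT and 2.01 and 2.59 CPM in USP18-/- libraries. They differed by a log2 fold change of 1.43 ± 0.42 (edgeR adjusted p = 0.00341). Without IFNα the window held 1.12 and 1.16 CPM in WT and 2.07 and 1.52 CPM in USP18-/- cells, and was not called.

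IL1RN was the member of the IL-1 family with the largest rise. In USP18-/- cells IFNα raised 6 of its 11 windows, against 7.12% of all windows. The difference of the effects was called higher for the same 6 windows, against 4.66% of all windows. In WT cells edgeR and DESeq2 called 0, and 4 windows were higher at an unadjusted p under 0.05. The window at -72 bp (chr2:113126989-113127989) covers a promoter of the gene. It held 28.4 and 27.6 CPM in untreated WT, 33.7 and 37.1 CPM in IFNα-treated WT, 15.1 and 16.8 CPM in untreated USP18-/- and 77.9 and 68.8 CPM in IFNα-treated USP18-/- cells. Untreated USP18-/- libraries were thus the lowest and IFNα-treated USP18-/- libraries the highest, with both WT groups between them and no overlap of groups. IFNα raised it by 2.20 ± 0.11 on the log2 scale in USP18-/- cells, 4.60-fold (edgeR adjusted p = 2.82e-30), and the log2 fold change in WT was 0.34 ± 0.11 (edgeR adjusted p = 0.198). The difference of the effects was 1.86 ± 0.16 (edgeR adjusted p = 6.11e-16). For loss of USP18 the log2 fold change was -0.81 ± 0.12 without IFNα (edgeR adjusted p = 6.28e-08), under the fold threshold, and 1.05 ± 0.10 with IFNα. The latter call was under the fold threshold with sum-of-counts scaling (0.77), without WT IFN replicate 1 (0.98) and without USP18-/- IFN replicate 1 (0.93).

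Next to it, the window at 341 bp shares 588 bases with the promoter window and rose from 16.9 and 20.03 CPM to 59.03 and 63.5 CPM with IFNα in USP18-/- cells (log2 fold change 1.73 ± 0.11). In WT cells it held 30.2 and 29.8 CPM untreated and 33.5 and 35.4 CPM treated. Upstream, 3 overlapping windows in an intron of the longer transcripts, at -2869, -3179 and -3606 bp, formed a second acetylated stretch. At -2869 bp (chr2:113124192-113125192) the libraries held 12.1 and 12.5 CPM in untreated WT, 18.2 and 19.8 CPM in IFNα-treated WT, 7.32 and 11.4 CPM in untreated USP18-/- and 58.9 and 62.6 CPM in IFNα-treated USP18-/- cells. IFNα-treated USP18-/- libraries stood far above the other 6, which did not exceed 19.8 CPM. With IFNα it had a log2 fold change of 2.71 ± 0.14 in USP18-/- cells (edgeR adjusted p = 2.25e-31) and 0.62 ± 0.15 in WT cells, which had an edgeR adjusted p of 0.0124 and missed the fold threshold. The window at -3179 bp was the only other cytokine window with an adjusted p under 0.05 for IFNα in WT (log2 0.50 ± 0.13, edgeR adjusted p = 0.0469). In USP18-/- cells the windows at -3179 and -3606 bp rose by 2.50 and 2.40 on the log2 scale.

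The largest relative change of the IL1RN windows was at -19715 bp (intergenic). It held 0.509 and 0.895 CPM in untreated WT, 0.977 and 0.708 CPM in IFNα-treated WT, 0.602 and 0.949 CPM in untreated USP18-/- and 11.98 and 9.44 CPM in IFNα-treated USP18-/- cells. The first 6 libraries stayed under 1 CPM, with 5 to 10 counts each, and the IFNα-treated USP18-/- libraries held 137 and 102 counts. Its log2 fold change was 3.78 ± 0.31 for IFNα in USP18-/- cells (edgeR adjusted p = 1.19e-18), 3.65 ± 0.31 for loss of USP18 with IFNα (edgeR adjusted p = 5.4e-18) and 3.54 ± 0.67 for the difference of IFNα effects. For loss of USP18 without IFNα neither edgeR nor DESeq2 called an IL1RN window, and log2 fold changes ran from -0.88 to 0.25. Still, 4 windows were lower with an edgeR adjusted p under 0.05 and missed only the fold threshold. These were the windows at -72 bp (edgeR adjusted p = 6.28e-08), 341 bp (1.12e-06), -3179 bp (0.0215) and -2869 bp (0.0411). The start of the other annotated IL1RN transcript, at -87 bp of its own TSS (chr2:113117306-113118306), held only 0.86 to 1.66 CPM over the 8 libraries and was not called.

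TNF, the gene of the cytokine that leads the acute inflammatory response, had 1 window, at its promoter (-54 bp, chr6:31575013-31576013). It held 14.6 and 14.9 CPM in untreated WT, 16.99 and 17.9 CPM in IFNα-treated WT, 47.4 and 45.8 CPM in untreated USP18-/- and 86.4 and 86.1 CPM in IFNα-treated USP18-/- cells. The 4 groups did not overlap and both USP18-/- groups lay above both WT groups. Loss of USP18 raised it by 1.66 ± 0.12 on the log2 scale without IFNα, 3.16-fold (edgeR adjusted p = 8.54e-22), and by 2.31 ± 0.11 with IFNα, 4.94-fold (edgeR adjusted p = 1.93e-32). With IFNα the log2 fold change was 0.89 ± 0.10 in USP18-/- cells (edgeR adjusted p = 1.18e-12), under the fold threshold, and 0.24 ± 0.13 in WT. The difference of the effects was 0.65 ± 0.16 (edgeR adjusted p = 0.00263).

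Windows on both sides of TNF belonged to the lymphotoxin genes LTA and LTB, which encode related ligands. The LTA window at -11625 bp held 50.2 ± 1.43 CPM (SD, n = 2) in untreated WT and 146 ± 10.5 CPM in untreated USP18-/- cells, a log2 fold change of 1.54 ± 0.09 (edgeR adjusted p = 8.89e-27). The LTB window at 1419 bp held 31.2 ± 2.26 and 96.5 ± 0.989 CPM, a log2 fold change of 1.62 ± 0.10 (edgeR adjusted p = 4.74e-26). IFNα was not called at either, with log2 fold changes in USP18-/- cells of 0.14 ± 0.08 and 0.07 ± 0.09.

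IL6, which encodes the cytokine that signals through the shared receptor chain gp130, had 5 windows. All of them were higher in USP18-/- cells without IFNα, rose again with IFNα in those cells, and were not called for IFNα in WT. Over all windows, 5.67% were higher after loss of USP18 without IFNα and 7.12% rose with IFNα in USP18-/- cells. The window with the most tags, at -3652 bp (chr7:22722990-22723990, intergenic), held 3.36 and 3.58 CPM in untreated WT, 4.49 and 3.64 CPM in IFNα-treated WT, 15.9 and 13.95 CPM in untreated USP18-/- and 64.01 and 67.3 CPM in IFNα-treated USP18-/- cells. The WT libraries stayed within 3.36 to 4.49 CPM, both untreated USP18-/- libraries were over 13 CPM, and both treated ones were over 64 CPM. For loss of USP18 its log2 fold change was 2.10 ± 0.19 without IFNα (edgeR adjusted p = 1.1e-16) and 4.01 ± 0.15 with IFNα, 16.1-fold (edgeR adjusted p = 1.41e-38). IFNα raised it by 2.13 ± 0.12 in USP18-/- cells (edgeR adjusted p = 2.74e-27), and the difference from the effect in WT was 1.90 ± 0.28 (edgeR adjusted p = 6.67e-08).

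Farther upstream, the IL6 window at -26258 bp (chr7:22700384-22701384, intergenic) held 4.59 and 6.00 CPM in untreated WT, 6.93 and 6.68 CPM in IFNα-treated WT, 12.05 and 13.95 CPM in untreated USP18-/- and 40.2 and 42.3 CPM in IFNα-treated USP18-/- cells. The order of the groups was that of the -3652 bp window, with a higher level in WT. Its log2 fold change was 1.28 ± 0.18 for loss of USP18 without IFNα, 1.67 ± 0.14 for IFNα in USP18-/- cells and 1.31 ± 0.25 for the difference of IFNα effects (edgeR adjusted p = 2.99e-05).

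At the IL6 promoter (-154 bp, chr7:22726488-22727488), the stretch printed above with NF-kB, C/EBP and AP-1 matches, the libraries held 0.204 and 0.716 CPM in untreated WT, 1.17 and 1.01 CPM in IFNα-treated WT, 1.98 and 1.80 CPM in untreated USP18-/- and 12.5 and 12.1 CPM in IFNα-treated USP18-/- cells. Untreated WT libraries had 2 and 8 counts, so their level and any fold against them are imprecise, whereas the IFNα-treated USP18-/- libraries had 143 and 131. Loss of USP18 without IFNα gave a log2 fold change of 1.97 ± 0.47 (edgeR adjusted p = 0.000386) and IFNα in USP18-/- cells 2.69 ± 0.25 (edgeR adjusted p = 6.09e-16). For IFNα in WT it was 1.18 ± 0.54 (edgeR adjusted p = 0.479), and the difference of effects was 1.51 ± 0.66 (edgeR adjusted p = 0.143), not called. The overlapping window at -573 bp held 2.50 and 2.37 CPM in untreated and 14.3 and 14.8 CPM in treated USP18-/- cells, and the window at -1321 bp 2.15 and 1.90 and 9.53 and 10.8 CPM. In WT libraries both held 0.51 to 1.27 CPM. At -573 bp the difference of IFNα effects (1.96 ± 0.58, edgeR adjusted p = 0.0118) was not called without WT untreated replicate 2 (adjusted p = 0.328) or WT IFN replicate 2 (adjusted p = 0.0595). At -1321 bp the gain in untreated USP18-/- cells (1.23 ± 0.40, edgeR adjusted p = 0.0118) was not called without WT untreated replicate 2 (adjusted p = 0.0978) or USP18-/- untreated replicate 1 (adjusted p = 0.0748).

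**Figure D2:**
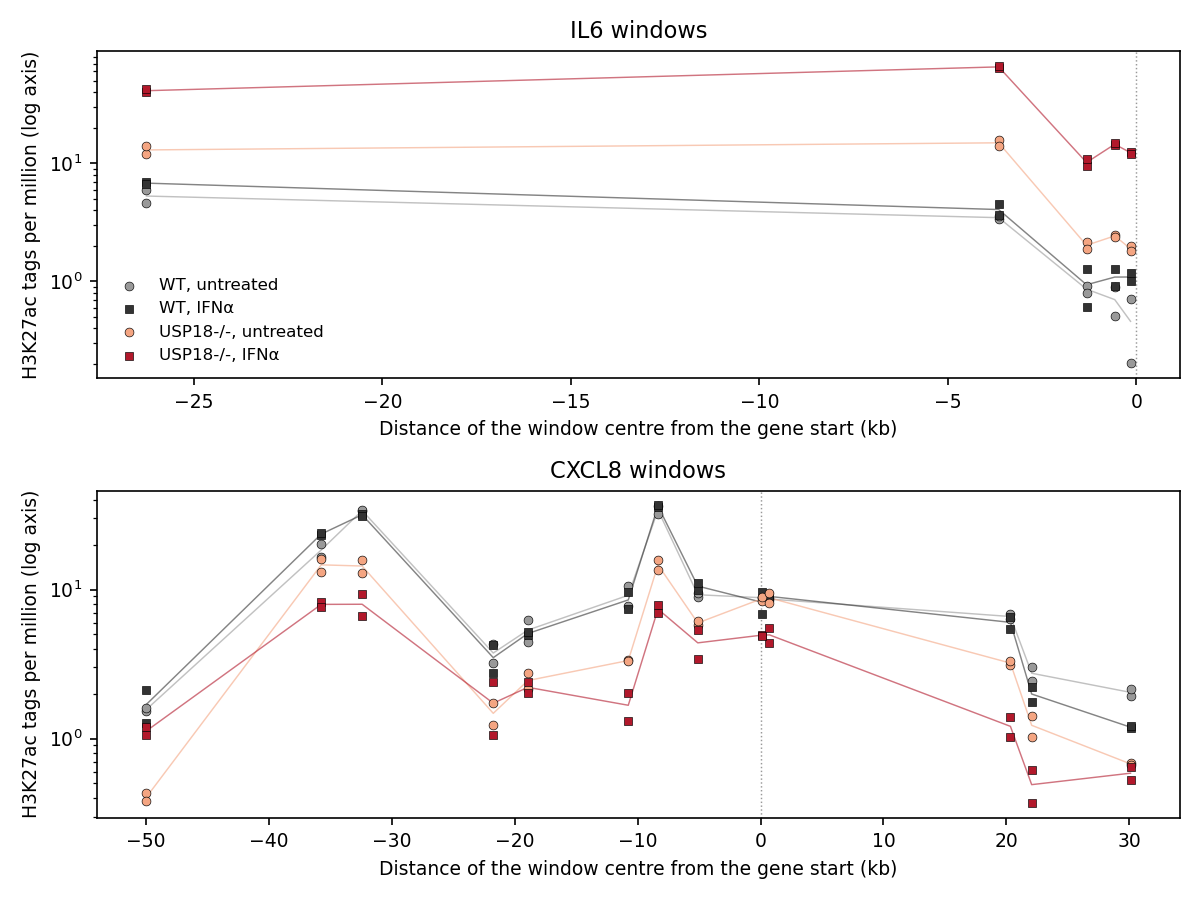
H3K27ac in CPM (log axis) against the distance of the window centre from the start in kb, for the 5 IL6 windows and the 13 CXCL8 windows; each point is a library, and thin lines join group means. At IL6 the treated USP18-/- libraries lie highest at every window, and at CXCL8 the USP18-/- libraries lie below WT at the windows of -32408 and -8341 bp and meet them at the start when untreated.

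CXCL8, the gene of the chemokine IL-8, moved the other way. Its 13 windows span from -49957 to 30103 bp. In untreated cells 9 of 13 were lower after loss of USP18, against 10.8% of all windows. With IFNα 9 of 13 were lower, against 13.4% of all windows, and 7 of the 13 were lower under both treatments. By DESeq2 the counts without and with IFNα were 6 and 8. No window of CXCL8 was called higher in any comparison by edgeR or DESeq2, and at an unadjusted p under 0.05 there was 1 higher window for IFNα in WT and 1 for IFNα in USP18-/- cells. The CXCL8 window with the most tags over the 8 libraries, at -8341 bp (chr4:73731665-73732665, intergenic), held 36.4 and 31.95 CPM in untreated WT, 35.9 and 36.6 CPM in IFNα-treated WT, 13.6 and 15.7 CPM in untreated USP18-/- and 6.91 and 7.87 CPM in IFNα-treated USP18-/- cells. The WT groups with and without IFNα overlapped, and both lay above untreated USP18-/- libraries, which lay above the treated ones. For loss of USP18 the log2 fold change was -1.22 ± 0.13 without IFNα (edgeR adjusted p = 3.87e-13) and -2.30 ± 0.14 with IFNα (edgeR adjusted p = 3.56e-25). IFNα in USP18-/- cells gave -0.98 ± 0.16 (edgeR adjusted p = 3.55e-07), just short of the fold threshold, and the difference of effects was -1.07 ± 0.20 (edgeR adjusted p = 2.19e-05). That difference was -0.98 without WT untreated replicate 2 and -0.97 without USP18-/- untreated replicate 2, under the fold threshold.

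A second peak of acetylation lay 32 to 36 kb upstream. The window at -32408 bp (chr4:73707598-73708598, intergenic) held 33.5 and 34.2 CPM in untreated WT, 32.2 and 31.3 CPM in IFNα-treated WT, 15.8 and 13 CPM in untreated USP18-/- and 9.27 and 6.66 CPM in IFNα-treated USP18-/- cells. WT and USP18-/- libraries did not overlap, and the log2 fold change for loss of USP18 was -1.23 ± 0.13 without and -1.99 ± 0.15 with IFNα (edgeR adjusted p = 7.79e-13 and 4.32e-21). The window at -35734 bp (chr4:73704272-73705272) held 20.3 and 16.6 CPM in untreated WT, 23.1 and 23.97 CPM in IFNα-treated WT, 16.1 and 13.2 CPM in untreated USP18-/- and 8.22 and 7.68 CPM in IFNα-treated USP18-/- cells. All WT libraries held more than the USP18-/- libraries here too, and the treated USP18-/- libraries were the lowest. Loss of USP18 gave -0.32 ± 0.15 without IFNα (edgeR adjusted p = 0.0832) and -1.56 ± 0.16 with it (edgeR adjusted p = 1.2e-14), and the difference of IFNα effects was -1.24 ± 0.22 (edgeR adjusted p = 6.08e-06).

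In contrast to these windows, the start of CXCL8 did not follow the genotype in untreated cells. The window at 103 bp (chr4:73740109-73741109, over the 5' UTR and first exon) held 8.76 and 8.86 CPM in untreated WT, 6.84 and 9.61 CPM in IFNα-treated WT, 8.43 and 8.92 CPM in untreated USP18-/- and 4.98 and 4.90 CPM in IFNα-treated USP18-/- cells. Untreated USP18-/- libraries lay within the range of WT, and treated USP18-/- libraries were the lowest. The log2 fold change for loss of USP18 was -0.02 ± 0.19 without IFNα (edgeR adjusted p = 0.944) and -0.73 ± 0.21 with IFNα (edgeR adjusted p = 0.00299), and IFNα in USP18-/- cells gave -0.81 ± 0.21 (edgeR adjusted p = 0.0013). Neither passed the fold threshold, and with sum-of-counts scaling the second of the 3 values was -1.01 and called. The overlapping window at 731 bp held 9.08 and 8.90 CPM in treated WT and 4.37 and 5.55 CPM in treated USP18-/- cells, with log2 fold changes of 0.02 ± 0.19 and -0.86 ± 0.21 for loss of USP18 without and with IFNα.

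The other CXCL8 windows carried fewer tags. At -10757 bp loss of USP18 gave log2 fold changes of -1.46 ± 0.23 without and -2.34 ± 0.27 with IFNα, from 7.74 and 10.6 CPM in untreated WT to 3.36 and 3.32 CPM in untreated and 1.31 and 2.04 CPM in treated USP18-/- cells. At -5102 bp only the comparison with IFNα was called (-1.27 ± 0.21). Downstream, the window at 20331 bp was the only CXCL8 window called lower with IFNα in USP18-/- cells, from 3.10 and 3.32 to 1.40 and 1.02 CPM (log2 -1.39 ± 0.33, edgeR adjusted p = 0.000552). Its WT libraries held 6.83 and 6.36 CPM untreated and 5.47 and 6.57 CPM treated, and the log2 fold change with IFNα there was -0.13 ± 0.22. The difference of effects (-1.26 ± 0.40, edgeR adjusted p = 0.0242) was lost by DESeq2 (adjusted p = 0.0975) and without replicate 2 of any of the 4 groups (adjusted p = 0.0689 to 0.147). Loss of USP18 gave -1.03 ± 0.24 without IFNα, which was -0.99 without WT untreated replicate 1 and -0.98 without USP18-/- untreated replicate 1.

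For the remaining called windows of CXCL8, the log2 fold change for loss of USP18 without and with IFNα was -1.17 ± 0.37 and -1.98 ± 0.48 at 22060 bp. It was -1.12 ± 0.27 and -1.20 ± 0.28 at -18926 bp, and -1.32 ± 0.34 and -1.02 ± 0.33 at -21741 bp. At 30103 and -49957 bp only the loss without IFNα was called (-1.58 ± 0.46 and -1.92 ± 0.54), on 4 to 8 counts in each untreated USP18-/- library, and DESeq2 gave neither window an adjusted p. Several of these calls rested on single libraries. At 22060 bp the untreated call was lost without WT untreated replicate 2 (adjusted p = 0.119) or USP18-/- untreated replicate 1 (adjusted p = 0.114) and by DESeq2 (adjusted p = 0.0954). At -18926 bp the untreated value was -0.87 without WT untreated replicate 1 and -0.94 without USP18-/- untreated replicate 1. At -21741 bp the call with IFNα was lost without WT IFN replicate 2 (-0.67), without USP18-/- IFN replicate 1 (-0.56) and by DESeq2 (adjusted p = 0.0824).

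CXCL1, CXCL2 and CXCL3 lie in the same chemokine cluster of chromosome 4 and bind CXCR2. At the CXCL1 start (92 bp, chr4:73868984-73869984, promoter) the libraries held 6.83 and 6.89 CPM in untreated WT, 5.86 and 6.47 CPM in IFNα-treated WT, 2.93 and 4.08 CPM in untreated USP18-/- and 3.15 and 2.50 CPM in IFNα-treated USP18-/- cells. WT libraries all lay above USP18-/- libraries. Loss of USP18 gave a log2 fold change of -0.98 ± 0.24 without IFNα (edgeR adjusted p = 0.000529), just under the fold threshold, and -1.12 ± 0.25 with IFNα (edgeR adjusted p = 0.000124). The latter was -0.96 without USP18-/- IFN replicate 2, and the former passed the threshold with sum-of-counts scaling (-1.12), with a filter of 30 counts (-1.04) and without USP18-/- untreated replicate 2 (-1.23). A CXCL1 window at 3633 bp (chr4:73872525-73873525, intergenic) went from 12.02 and 11.8 CPM in untreated WT to 6.46 and 5.98 CPM in untreated and 4.72 and 3.52 CPM in treated USP18-/- cells. Its log2 fold change was -0.94 ± 0.19 without and -1.36 ± 0.21 with IFNα (edgeR adjusted p = 2.69e-05 and 2.74e-08), of which the second was called.

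At the start of CXCL2 (35 bp, chr4:74098745-74099745, promoter) the level was higher than at CXCL1 or CXCL3 in every group, with 17.2 and 16.3 CPM in untreated WT, 15.2 and 14.8 CPM in IFNα-treated WT, 10.9 and 10.5 CPM in untreated USP18-/- and 11.5 and 11.5 CPM in IFNα-treated USP18-/- cells. All WT libraries lay above all USP18-/- libraries, by less than the fold threshold. The log2 fold change for loss of USP18 was -0.64 ± 0.15 without IFNα (edgeR adjusted p = 0.000496) and -0.39 ± 0.16 with IFNα (edgeR adjusted p = 0.0387). The CXCL3 start (162 bp, chr4:74038111-74039111, first exon) held 1.43 and 1.16 CPM in untreated WT, 2.05 and 1.31 CPM in IFNα-treated WT, 1.03 and 1.71 CPM in untreated USP18-/- and 1.14 and 0.74 CPM in IFNα-treated USP18-/- cells. These levels were near those of IL1A, and the log2 fold change for loss of USP18 with IFNα was -0.83 ± 0.45 (edgeR adjusted p = 0.135), not called; it was -1.10 and called with sum-of-counts scaling.

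Across the 10 windows nearest the starts, the order of H3K27ac levels differed between the outer groups. In untreated WT cells IL1RN was highest (28 ± 0.607 CPM, SD, n = 2), followed by CXCL2 (16.8 ± 0.657), TNF (14.8 ± 0.267), CXCL8 (8.81 ± 0.07) and CXCL1 (6.86 ± 0.0464). IL1B (5.19 ± 0.879), IL18 (3.92 ± 0.359), CXCL3 (1.30 ± 0.186), IL1A (0.963 ± 0.223) and IL6 (0.46 ± 0.362) came after them, and no neighbours in this order overlapped. In IFNα-treated USP18-/- cells TNF led (86.3 ± 0.178 CPM), then IL1RN (73.3 ± 6.48), IL6 (12.3 ± 0.271), CXCL2 (11.5 ± 0.0129) and CXCL8 (4.94 ± 0.0568). IL18, IL1B and CXCL1 followed with 3.64, 3.21 and 2.82 CPM, where IL18 overlapped IL1B and IL1B overlapped CXCL1, and IL1A and CXCL3 were lowest. In treated WT cells IL1RN led at 35.4 ± 2.43 CPM and only CXCL3 and IL1A overlapped. In untreated USP18-/- cells TNF led at 46.6 ± 1.12 CPM, and the pairs IL1B and IL18, IL18 and CXCL1, and CXCL3 and IL1A overlapped.

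**Figure D3:**
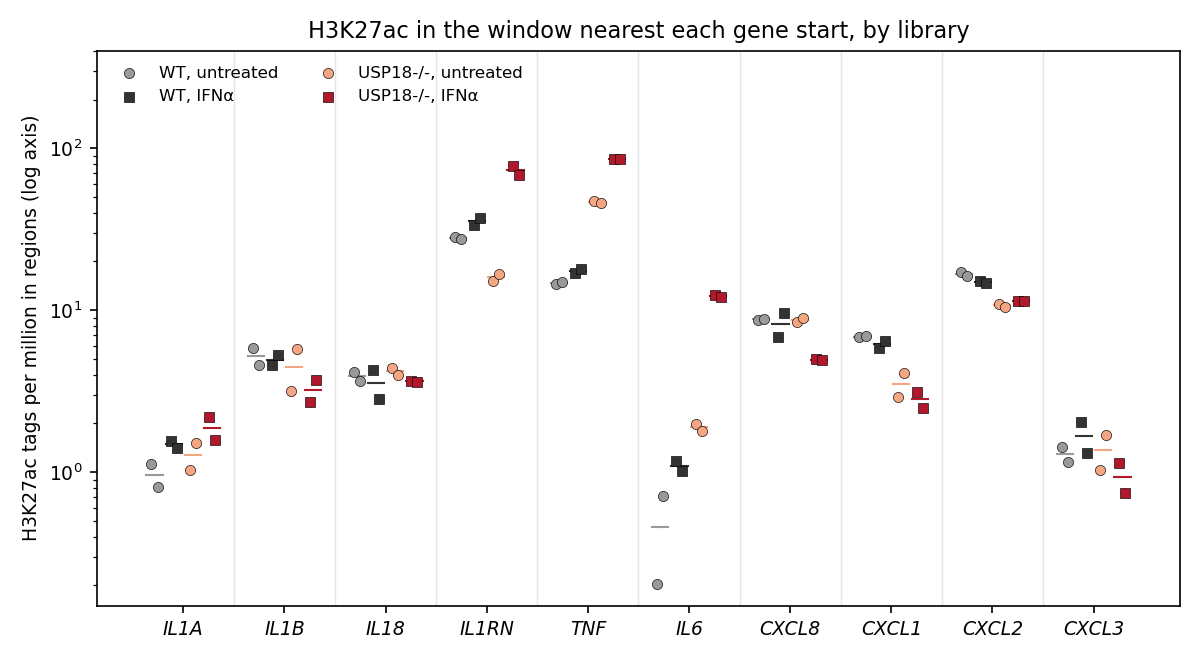
H3K27ac in CPM (log axis) in the window nearest the start of each gene; each point is 1 of 2 libraries of a group and the bar is their mean. TNF and IL1RN reach 86.3 and 73.3 CPM in treated USP18-/- cells, IL6 moves from 0.46 CPM in untreated WT to 12.3 CPM, and IL1B, IL18, IL1A and CXCL3 stay under 6 CPM in every library.

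By position, 6 of 19 tested windows within 3000 bp of a TSS (31.6%) rose with IFNα in USP18-/- cells, and 5 of 37 farther away (13.5%) did. Over all windows 7.12% rose, a share that was not split by distance. Loss of USP18 without IFNα lowered 0 of the 19 by edgeR and by DESeq2. In that comparison 5 of the 19 were lower with an edgeR adjusted p under 0.05 but missed the fold threshold. The same loss lowered 9 of the 37 by edgeR (24.3%, background 10.8%). The latter 9 were all of CXCL8, so the split by distance is also a split by gene and was not tested. Windows that overlap share tags, and 16 of the 57 overlapped another. With 1 window for each of 48 chains of overlapping windows, IFNα in USP18-/- cells raised 6 and lowered 2, against 7.12% and 4.3% of all windows. Loss of USP18 without IFNα raised 4 and lowered 9 of these, against 5.67% and 10.8% of all windows. With IFNα it raised 9 and lowered 11, against 11.3% and 13.4%.

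**Figure D4:**
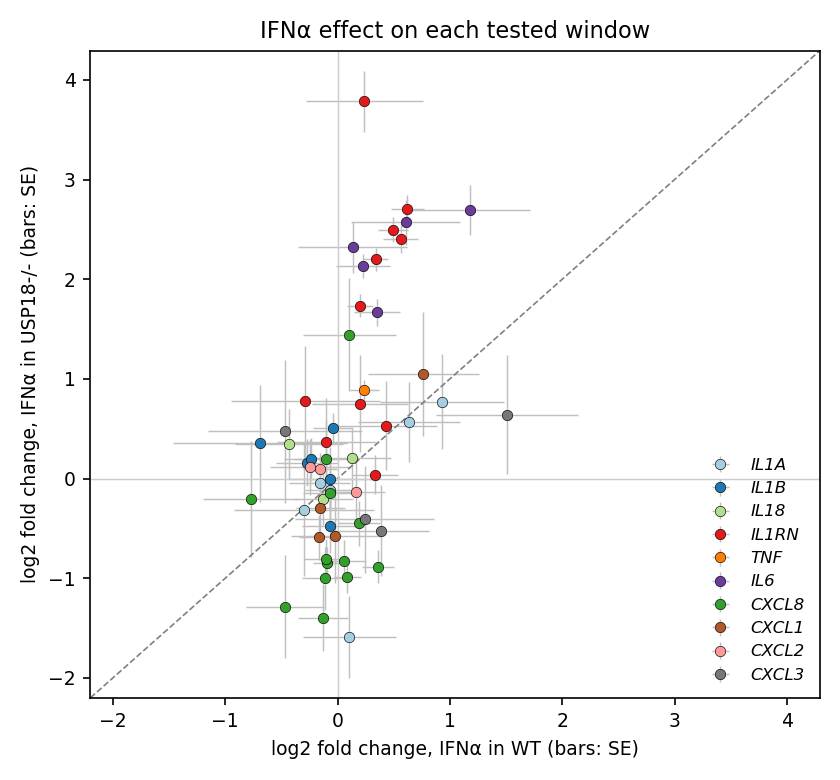
The log2 fold change with IFNα in USP18-/- cells against that in WT cells for the 56 tested windows, coloured by gene, with SE bars and a dashed line of equal effects. The called IL1RN and IL6 windows lie between 1.67 and 3.78 on the vertical axis and between 0.14 and 1.18 on the horizontal axis, and most CXCL8 windows lie below 0 on the vertical axis.

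Genes that sense, process and restrain these cytokines were taken from a list chosen with earlier results of these data known. The shares below therefore only describe the listed genes. For the receptors of IL-1, IL-18, IL-6, TNF and CXC chemokines, 56 of 62 windows were tested. Loss of USP18 raised 2 (3.57%) and lowered 11 (19.6%) of them without IFNα, against 5.67% and 10.8% of all windows, where DESeq2 called 2 and 7. With IFNα it raised 4 (7.14%) and lowered 13 (23.2%), against 11.3% and 13.4% of all windows, and DESeq2 called 3 and 10. IFNα in USP18-/- cells raised 4 (7.14%) and lowered 2 (3.57%), against 7.12% and 4.3%, and DESeq2 called 3 and 1. In WT cells it lowered 1, which DESeq2 did not call, the TNFRSF1B window at 6948 bp (log2 -1.42 ± 0.36). TNFRSF1A, the main TNF receptor of most cells, had the largest rise, at 11741 bp in an intron, from 1.03 ± 0.12 to 22.3 ± 0.316 CPM with IFNα in USP18-/- cells (SD, n = 2; log2 4.41 ± 0.25, edgeR adjusted p = 4.52e-28). Its level in WT cells was 0.727 ± 0.269 CPM untreated and 2.09 ± 0.614 CPM treated. The IL6R window at -6956 bp, by contrast, was lower after loss of USP18, by a log2 fold change of -1.69 ± 0.34 without and -2.60 ± 0.35 with IFNα. For IL1R1, the signalling IL-1 receptor, the window at -4456 bp gave -1.10 ± 0.31 and -2.33 ± 0.36, and IL6ST, which encodes gp130, gave 1.16 ± 0.14 at its start (-81 bp) with IFNα.

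Of 27 windows of the processing genes CASP1, NLRP3, PYCARD and ADAM17, 26 were tested. IFNα in USP18-/- cells raised 10 (38.5%) and lowered 1 (3.85%), against 7.12% and 4.3% of all windows, and the difference of effects was called higher for 8 (30.8%, against 4.66%). DESeq2 called 9, 0 and 6. In WT cells edgeR and DESeq2 called 0, as did an unadjusted p under 0.05. ADAM17, which cleaves TNF from the cell surface, had the largest change, at 7172 bp in an intron, from 1.67 ± 0.0762 CPM in untreated to 14.4 ± 1.08 CPM in treated USP18-/- cells (log2 3.10 ± 0.24), beside 1.30 ± 0.186 and 1.04 ± 0.326 CPM in WT. CASP1, the caspase that matures IL-1β and IL-18, rose at 2472 bp (log2 2.20 ± 0.25), and NLRP3, the inflammasome sensor, at -7818 bp (log2 1.23 ± 0.14). By gene, the 10 raised windows were 6 of 9 tested for ADAM17, 2 of 3 for CASP1 and 2 of 11 for NLRP3. The 1 lowered window was of NLRP3, whose median log2 fold change was -0.10, and none of the 3 PYCARD windows was called.

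Among 33 tested windows of the adaptors MYD88 and the IRAK and TRAF6 genes, loss of USP18 raised 8 (24.2%) and lowered 2 (6.06%) without IFNα, against 5.67% and 10.8% of all windows. With IFNα these counts were also 8 and 2, against 11.3% and 13.4% of all windows. DESeq2 called 9 and 2 without IFNα and 7 and 2 with it. The start of MYD88 (160 bp), the shared adaptor of IL-1 and Toll-like receptors, was the 1 adaptor window raised by IFNα in WT cells, from 4.22 ± 0.49 to 9.21 ± 1.56 CPM (log2 1.12 ± 0.20, edgeR adjusted p = 0.000186). In USP18-/- cells it rose from 7.95 ± 0.295 to 37.3 ± 2.90 CPM (log2 2.23 ± 0.15). Over the 5 MYD88 windows the median log2 fold change with IFNα in USP18-/- cells was -0.43. The difference of IFNα effects was called higher for 1 of the 5 and lower for 2, against 4.66% and 2.51% of all windows. IRAK3, the kinase-dead brake on this pathway, was higher after loss of USP18 at -415 bp with log2 fold changes of 1.53 ± 0.14 without and 1.34 ± 0.14 with IFNα. IRAK2 rose at 9149 bp with IFNα in USP18-/- cells (log2 1.66 ± 0.16).

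Of the inhibitors IL18BP, SIGIRR, TNFAIP3 and NFKBIA, 24 of 27 windows were tested. Loss of USP18 raised 6 (25%) and lowered 0 of them without IFNα, against 5.67% and 10.8% of all windows, where DESeq2 called 5 and 0 and 3 were lower at an unadjusted p under 0.05. With IFNα it raised 4 (16.7%) and lowered 2 (8.33%), against 11.3% and 13.4% of all windows, and DESeq2 called as many. The NFKBIA window at -25666 bp rose with IFNα in USP18-/- cells (log2 2.35 ± 0.37). In the gene clusters around the cytokines, 17 of 22 windows of CXCL6, PF4, PF4V1, the IL36 genes, IL37, IL1F10, LTA and LTB were tested. With IFNα, 11 (64.7%) were higher and 2 (11.8%) lower in USP18-/- than in WT cells, against 11.3% and 13.4% of all windows, and DESeq2 called 7 and 1. The 2 lower ones lay in the chemokine cluster of chromosome 4, at CXCL6 (-7439 bp, log2 -1.59 ± 0.62) and PF4V1 (-5581 bp, log2 -2.04 ± 0.40). The IL36A window at 20494 bp, in the IL-1 gene cluster of chromosome 2, rose with IFNα in USP18-/- cells from 0.504 ± 0.226 to 3.67 ± 0.998 CPM (log2 2.86 ± 0.43).

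As a description over the 8 libraries, the start windows most like that of CXCL8 among 14275 genes compared were those of HERC2P11, IPCEF1 and ITGAM, with Pearson's r of 0.975, 0.972 and 0.970 between log2 CPM values. For the IL1B start they were SLA2 (0.949), HOXC-AS1 (0.945) and CTD-2270F17.1 (0.935). The libraries share 4 groups, so such values follow group means, and 92 genes had an r over 0.9 with CXCL8.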

How the data were processed

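H3K27ac ChIP-seq of THP-1 cells was analysed in 8 libraries, 2 in each of 4 groups named by the labels. The deposited unit is expected counts, as tags were shared in steps of 0.5, with no normalization. The authors mapped reads to hg38 with Bowtie2 and used HOMER to count raw tags within 1000 bp around pooled ATAC-seq peaks; tool versions were not given in the sources used here. Gene names and distances to the TSS are those of the deposited table. Input libraries and ATAC-seq were not analysed here, and 0 value columns were left unmapped.

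Values were rounded to whole counts. Windows with 10 counts or more in 2 or more libraries were scaled by TMM and tested with edgeR 4.0.16 (limma 3.58.1, R 4.3.3) by the quasi-likelihood test with 1 mean per group. Calls needed a log2 fold change over 1 in size and an adjusted p under 0.05 (Benjamini-Hochberg, 123276 windows). The SE of a log2 fold change was its size divided by the root of the F statistic. CPM are counts per 1000000 of the TMM-scaled library size. The libraries held 9046141 to 12935454 tags in the windows, and with 2 per group the precision rests on a spread shared across windows. The steps were tested on simulated data.

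The windows named were the one nearest each TSS and every called one; for other genes of the pathway, the called window with the largest change. The members and lists were chosen with earlier results of these data known. Alternatives were DESeq2 1.42.0, scaling by the sum of counts, filters of 1 and 30 counts, no fold threshold, a limit of 10000 bp, 1 window per chain of overlapping windows, the replicate number as a block, leaving out each library and, chosen after seeing the data, unrounded values. Motifs were searched in hg38, and promoter starts of TNF and CXCL8 were taken from RefSeq (GRCh38.p14). The sequence of 1 IL1RN window is not reported here.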

Additional observations from a re-analysis of the deposited data

Results flagged for a closer look

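For 14 cytokine windows the effect of IFNα differed between USP18-/- and WT cells by the test of the difference itself (edgeR, adjusted p under 0.05 and a log2 difference over 1 in size). The difference, as the log2 effect in USP18-/- minus that in WT, was largest at the IL1RN window of -19715 bp (3.54). At the other IL1RN windows it was 2.09 (-2869 bp), 2.00 (-3179 bp), 1.86 (-72 bp), 1.84 (-3606 bp) and 1.53 (341 bp). At IL6 it was 2.18 (-1321 bp), 1.96 (-573 bp), 1.90 (-3652 bp) and 1.31 (-26258 bp).

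The effect of IFNα was lower in USP18-/- than in WT cells at 4 windows. These were the CXCL8 windows at -8341 bp (-1.07), -35734 bp (-1.24) and 20331 bp (-1.26) and the IL1A window at -2527 bp (-1.69). The IL1RN windows at -2869, -3179 and -3606 bp share tags with each other, as do those at -72 and 341 bp and the IL6 windows at -1321 and -573 bp.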

How the results depend on the processing

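The counts of called cytokine windows were recomputed under each alternative, given here as higher and lower where both are printed. Of the 68 calls of a window in a comparison, 60 held under every alternative that tested them with all libraries, 53 also held without any 1 library, and none turned direction; the 15 calls that were lost under at least 1 alternative are named in the report. DESeq2 gave no adjusted p for 3 of the 68, and 7 were not tested with a filter of 30 counts. The replicate number as a block gave 11 and 3 calls for IFNα in USP18-/- cells and lost none of the 68. Deviations of same-numbered libraries did not correlate (r = 0.00115 to 0.0463), so the numbers were not taken as pairs.

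For IFNα in WT cells, 2 windows were higher when no fold threshold was set, and 0 under the other alternatives. For IFNα in USP18-/- cells, 6 rather than 11 were higher with 1 window per overlapping chain. The lower count, 2, became 6 with sum-of-counts scaling, 1 with a filter of 30 counts, 9 without the fold threshold and 1 within 10000 bp, and ranged from 2 to 4 when 1 library was left out. For loss of USP18 without IFNα, 4 were higher with 1 window per chain, 17 were lower without the fold threshold, and 1 was lower within 10000 bp. With IFNα, 9 were higher with 1 window per chain, and 18 were lower with sum-of-counts scaling and 4 within 10000 bp. For the difference of IFNα effects, 6 were higher with 1 window per chain, and the 4 lower ones became 2 by DESeq2, 2 within 10000 bp and 1 to 5 without 1 library. The limit of 10000 bp kept 36 windows. For loss of USP18 without IFNα it took the windows called lower from 9 to 1 and those called higher from 7 to 6. With IFNα these went from 11 to 4 and from 14 to 11. The windows called lower that the limit left out were all of CXCL8. This split by distance is thus also a split by gene and was not tested. With 1 window per chain only counts of higher windows decreased, as overlapping windows of IL1RN and of IL6 were counted once. For loss of USP18 the called IL1A window at -8930 bp also dropped out. The window kept from its chain was that at -8280 bp, which was not called. Unrounded values moved each count by at most 1. Lower counts over all 123276 windows tested rose under the same settings. For IFNα in USP18-/- cells, 5303 became 7882 with sum-of-counts scaling and 13828 without the fold threshold. For loss of USP18 without IFNα, 13291 became 20776 without the fold threshold, and with IFNα 16528 became 24065 with sum-of-counts scaling.

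Depth limits the windows near 1 CPM, which rest on about 10 counts per library. With 2 libraries per group, calls near the fold threshold change with single libraries.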
